A study of Mus musculus with 8 samples.

Results

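The 8 genes described here make cholesterol or control its making: Hmgcs1, Idi1, Fdft1, Sqle, Lss, Cyp51, Srebf2 and Insig1. They were chosen by name, with earlier results of these data known, and are 8 of the 37411 genes counted. The RNA came from CD4+ effector T cells of C57BL/6 background, transduced with a retrovirus carrying a short hairpin RNA, transferred into Rag1-/- mice and sorted 6 weeks later, at about 10000 cells per library. Every host therefore lacked its own mature T and B cells. There were 8 libraries, 1 for each combination of 3 factors: tissue (small intestine or spleen), hairpin (shMdr1, against the multidrug efflux transporter gene Abcb1a, or the control hairpin shCD8) and host (Rag1-/- with Slc10a2 -/-, called Asbt-/- below, or Rag1-/- with Slc10a2 +/+, called Asbt+/+). Slc10a2 encodes Asbt, the transporter that takes bile acids back up in the ileum. Titles set the hairpin of each library; a further label field names the shMdr1 construct for all 8 and was not followed. No source used here gives the age of the mice or the animals behind each library. Each factor was therefore compared over 4 against 4 libraries that differ in the other 2 factors. Nothing says that the 8 came from separate animals, so the p-values cannot be taken to measure spread between animals. They measure library spread, which may be technical, mixed with any dependence of a factor's effect on the other factors.

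Cells make cholesterol from acetyl-CoA through mevalonate, isoprenoids, squalene and lanosterol. When membrane sterol runs low, the Srebf2 product SREBP-2 is carried from the endoplasmic reticulum to the Golgi, cleaved and sent to the nucleus, where it switches on the enzymes of the route. INSIG proteins hold it back when sterol is plentiful, and Insig1 is itself a target gene. Dividing T cells use this route to build membrane, and bile acids are made from cholesterol in the liver.

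The start regions of these genes are shown because the route is known for shared control through short sterol regulatory elements and CCAAT boxes. RefSeq start regions (GRCm38.p6) were at hand for 6 of the 8 genes, and the 250 bases before the start are printed for 4 of them, 5′ to 3′ on the gene's strand. Hmgcs1 lies at chr13:119690101-119690350 on the plus strand, Cyp51 at chr5:4104698-4104947 on the minus strand, Srebf2 at chr15:82147019-82147268 on the plus strand and Insig1 at chr5:28071162-28071411 on the plus strand. Capitals mark TCACCNCA (the sterol element core with 1 free base), CCAAT and CACGTG (the E-box), each on either strand, so that CCAAT on the other strand reads ATTGG.
Hmgcs1: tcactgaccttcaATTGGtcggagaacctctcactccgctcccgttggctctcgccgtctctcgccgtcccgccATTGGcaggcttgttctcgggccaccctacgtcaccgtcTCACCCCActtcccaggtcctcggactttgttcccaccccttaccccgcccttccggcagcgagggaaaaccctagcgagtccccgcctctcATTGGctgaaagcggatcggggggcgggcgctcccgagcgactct
Cyp51: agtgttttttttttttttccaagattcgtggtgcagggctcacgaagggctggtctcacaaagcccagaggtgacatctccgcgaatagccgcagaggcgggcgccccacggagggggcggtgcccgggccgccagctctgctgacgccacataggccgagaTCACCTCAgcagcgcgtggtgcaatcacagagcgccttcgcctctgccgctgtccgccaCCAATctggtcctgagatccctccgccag
Srebf2: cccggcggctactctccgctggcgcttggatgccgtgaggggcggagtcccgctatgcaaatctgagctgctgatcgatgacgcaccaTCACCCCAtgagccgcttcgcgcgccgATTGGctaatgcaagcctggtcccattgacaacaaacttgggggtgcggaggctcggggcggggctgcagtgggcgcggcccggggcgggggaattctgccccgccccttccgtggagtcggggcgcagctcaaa
Insig1: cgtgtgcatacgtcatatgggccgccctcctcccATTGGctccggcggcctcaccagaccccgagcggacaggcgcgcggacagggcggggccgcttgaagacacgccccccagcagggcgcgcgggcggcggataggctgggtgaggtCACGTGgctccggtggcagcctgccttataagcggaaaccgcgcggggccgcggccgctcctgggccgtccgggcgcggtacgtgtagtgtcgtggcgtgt
The core TCACCCCA stood 130 to 137 bases before the start in Hmgcs1 and 155 to 162 bases before it in Srebf2. It was found in 1.34% of 32851 mouse start regions. With 1 base free, Cyp51 also held it, as TCACCTCA at 81 to 88 bases before the start, and the share over all start regions was 3.61%. Idi1, Insig1 and Lss held neither form in the 250 bases searched, and the regions of Idi1 and Lss are not printed. CCAAT was present in each of the 6 genes with an entry, against 33.8% of all start regions. Insig1 held CACGTG 96 to 101 bases before its start, a motif found in 6.02% of all start regions. The motifs were chosen after the sequences had been seen, and a match describes letters, not binding.

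Library totals ran from 1685225 to 2767105 counts. The 8 genes together took 232 to 789 counts in a library, so the low members are limited by counting. The shCD8 small intestine Asbt+/+ library stood apart, with 8456 genes detected against 11345 to 13184 in the other 7. Abcb1a was lower with shMdr1 in 3 of 4 matched pairs, with 40.4 against 91.0 CPM (counts scaled to a common library size) in small intestine Asbt-/-, 22.2 against 29.7 CPM in spleen Asbt-/- and 18.7 against 40.8 CPM in spleen Asbt+/+. In small intestine Asbt+/+ it had 23 counts, or 14.8 CPM, in the library labelled shMdr1 and 21 counts, or 8.28 CPM, in the library labelled shCD8, which goes against the label in direction. Both counts are low, and no counting interval was computed for their ratio. The hairpin value of each member is therefore also given without that pair. The T cell markers summed to 5124 to 9762 CPM in the 4 small intestine libraries and 5814 to 6926 CPM in the 4 spleen libraries, and all 9 were detected.

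Divided by exon length, Cyp51 had the highest mean level over the 8 libraries, at 12.3 ± 4.47 CPM per kb (SD, n = 8), followed by Hmgcs1 at 10.8 ± 7.96 CPM per kb. Insig1 averaged 7.13 ± 3.62 CPM per kb, Srebf2 4.85 ± 1.94 CPM per kb, Sqle 3.69 ± 1.57 CPM per kb and Fdft1 3.66 ± 2.76 CPM per kb. Neighbours in this order of 6 differed by less than the larger of their 2 SDs. Lss averaged 0.524 ± 0.391 CPM per kb and Idi1 0.234 ± 0.316 CPM per kb, and these last 2 differed by less than their larger SD. Fdft1 and Lss differed by more than either SD. The length counts every annotated exon base of a gene, 10787 for Lss and 4227 for Fdft1, and this gap depends on it. Undivided, Fdft1 averaged 15.5 ± 11.7 CPM and Lss 5.65 ± 4.22 CPM (SD, n = 8), which differ by less than the larger SD. Summed over the 8 genes, the level was 200.9 and 182.9 CPM in the shMdr1 small intestine libraries (Asbt-/-, then Asbt+/+) against 313 and 311 CPM in the shCD8 small intestine libraries. In spleen the sums were 143 and 162 CPM with shMdr1 against 153 and 161 CPM with shCD8. The small intestine sums thus lay above every spleen sum, and the shCD8 small intestine pair was highest. Hmgcs1 and Cyp51 held the most counts of the 8 genes. Each of these 2 was also higher in every small intestine library than in any spleen library, which held for none of the others. The separation of the sums therefore cannot be read as a shift of all 8 genes. The sums were not set against those of other genes.

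**Figure D1:**
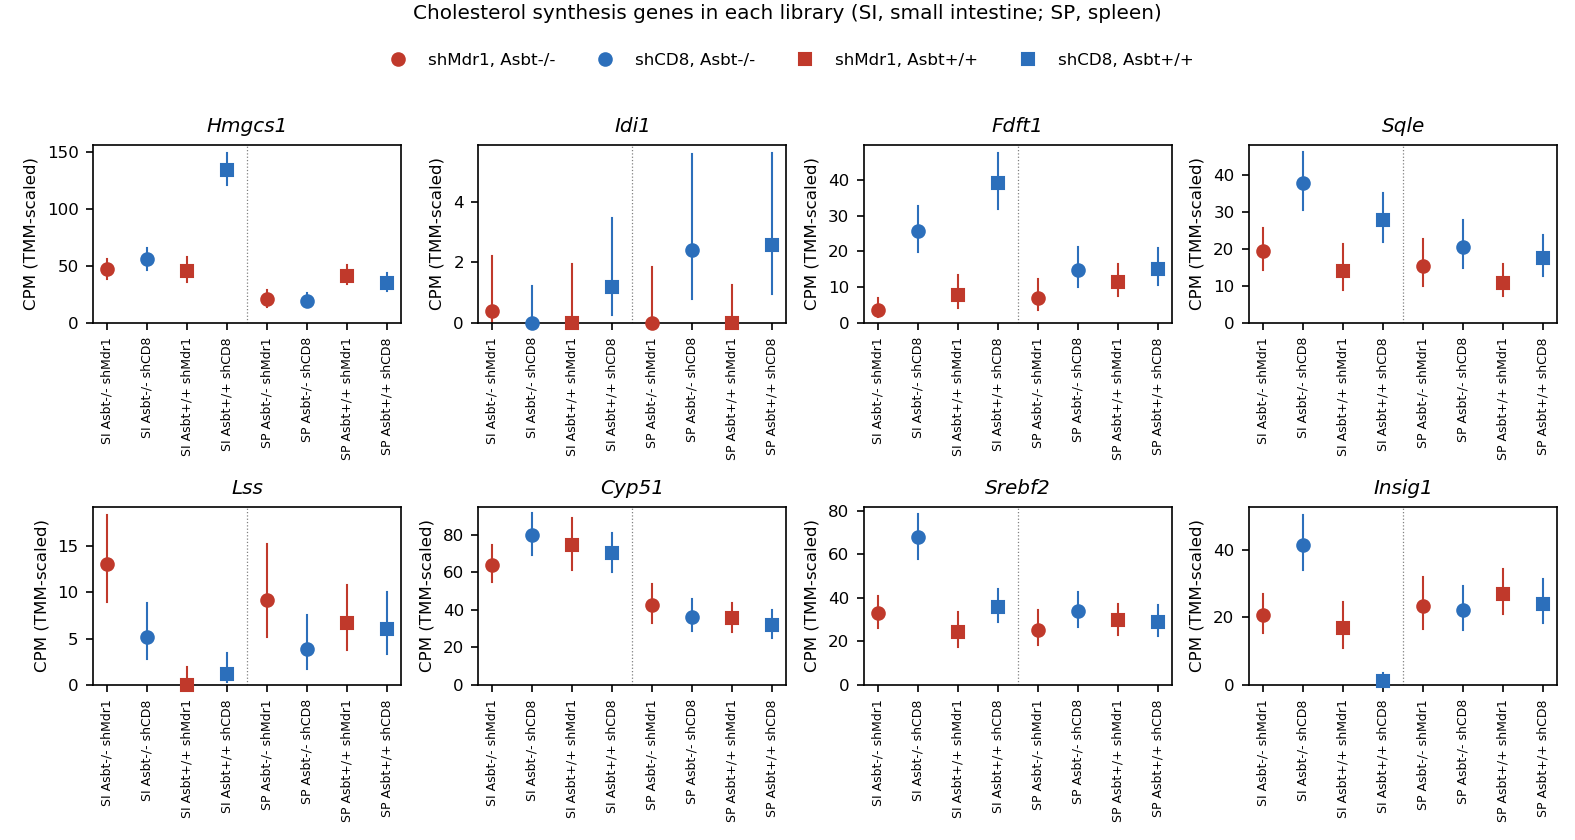
Level of each of the 8 genes in every library in CPM, with 1 point per library, small intestine (SI) left of spleen (SP), colour for hairpin, shape for host, and bars for the exact 95% Poisson interval of the count (for a count of 0, up to 3 counts). Hmgcs1 and Cyp51 are higher in all 4 small intestine libraries than in any spleen library, and Insig1 is near 0 in 1 library, at 1.18 CPM.

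The first comparison asks how the levels in small intestine differ from those in spleen. None of the 7 members with enough counts to be tested passed an adjusted p of 0.05 (edgeR quasi-likelihood test, Benjamini-Hochberg over 10000 genes), against 0.62% of all genes tested. Hmgcs1 and Cyp51 had the lowest p among the 7 genes, and were the 2 whose small intestine and spleen libraries did not overlap. Over all genes tested, 3.39% were separated in that direction. In bulk RNA, fewer cells of a type and less RNA per cell cannot be told apart.

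Hmgcs1 encodes HMG-CoA synthase, which makes the precursor of mevalonate. It had 46.8, 55.5, 45.6 and 134 CPM in the small intestine libraries (shMdr1 Asbt-/-, shCD8 Asbt-/-, shMdr1 Asbt+/+, shCD8 Asbt+/+), against 20.3, 18.7, 41.2 and 34.8 CPM in the spleen libraries in the same order. Every small intestine value was above every spleen value, and the shCD8 Asbt+/+ small intestine library was far above the other 7. The shMdr1 Asbt+/+ pair held the lowest small intestine and the highest spleen value. Its ratio was 1.11 (95% counting interval 0.804 to 1.52), so the separation is within counting error there. The means were 70.6 ± 42.8 CPM in small intestine and 28.8 ± 11.0 CPM in spleen (SD, n = 4 each). The log2 fold change was 1.26 ± 0.41 (SE), with an edgeR p of 0.0104 and an adjusted p of 0.356. Without the shCD8 small intestine Asbt+/+ library it was 0.96 (adjusted p = 0.319).

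Cyp51 encodes lanosterol demethylase, the first step after lanosterol. Its small intestine libraries held 64.2, 79.8, 74.5 and 70.2 CPM, against 42.5, 36.4, 35.4 and 31.8 CPM in spleen, in the same order. The groups were far apart for their spread, with means of 72.2 ± 6.61 CPM in small intestine and 36.5 ± 4.43 CPM in spleen (SD, n = 4 each). The log2 fold change was 0.99 ± 0.32 (SE), with an edgeR p of 0.0113 and an adjusted p of 0.374. In the 4 matched pairs the small intestine library held between 1.51 and 2.21 times the spleen level. Neither hairpin nor host separated its libraries, with log2 fold changes of 0.04 ± 0.32 for shMdr1 over shCD8 and 0.11 ± 0.32 for Asbt-/- over Asbt+/+.

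The other tested members overlapped between the tissues. Sqle, the squalene epoxidase of the first oxygen-dependent step, had 19.4, 37.9, 14.1 and 28.0 CPM in small intestine, against 15.4, 20.6, 10.8 and 17.6 CPM in spleen. It was higher in small intestine in 4 of 4 matched pairs, as were 8.11% of all genes tested, while the groups overlapped, and its log2 fold change was 0.57 ± 0.55 (SE). Fdft1, the squalene synthase that commits the route to sterols, had a tissue log2 fold change of 0.20 ± 0.74. Srebf2, the gene of the transcription factor, had 32.9, 67.8, 24.4 and 35.9 CPM in small intestine, against 25.2, 34.0, 29.6 and 28.8 CPM in spleen. It was higher in small intestine in 3 of 4 pairs, with a log2 fold change of 0.36 ± 0.44.

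Insig1 and Lss had small intestine values on both sides of their spleen values. Insig1 had 20.6, 41.5, 16.7 and 1.18 CPM there, against 23.4, 22.0, 27.1 and 24.1 CPM in spleen. The spleen libraries were close together, and the lowest small intestine library had only 3 counts. Its tissue log2 fold change was -0.54 ± 0.84. Lss, the lanosterol synthase that closes the sterol rings, had 13.1, 5.19, 0 and 1.18 CPM in small intestine, against 9.23, 3.83, 6.66 and 6.02 CPM in spleen, with a log2 fold change of -1.13 ± 1.42. The 0 counts of the shMdr1 small intestine Asbt+/+ library allow a level of up to 1.93 CPM there. For both genes the direction turned without the 2 small intestine Asbt+/+ libraries, to 0.41 for Insig1 and 0.47 for Lss. Those values rest on Asbt-/- hosts alone, since only these then hold both tissues.

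Idi1, the isomerase that makes the second isoprenoid building block, was too low to be tested. It had 1, 0, 0 and 3 counts in small intestine, against 0, 5, 0 and 6 counts in spleen. The small intestine sum of 4 counts against 11 in spleen gave a ratio of 0.336, with an exact 95% interval of 0.0781 to 1.14 that covers counting error only.

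Markers of other cells also moved with tissue. The 6 neutrophil markers summed to 10.7 to 182 CPM in small intestine against 833 to 7447 CPM in spleen, and the 6 erythroid markers to 38.3 to 105 CPM against 1089 to 41544 CPM. The 10 myeloid and antigen-presenting markers summed to 738 to 1311 CPM in small intestine against 241 to 795 CPM in spleen. The 12 epithelium markers summed to 34.3 to 232 CPM in small intestine, with Krt20 and Apoa1 at 0 in all 4 libraries, against 22.5 to 154 CPM in spleen, with Fabp1 at 0. The part of these cells in the tissue values was not tested.

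**Figure D2:**
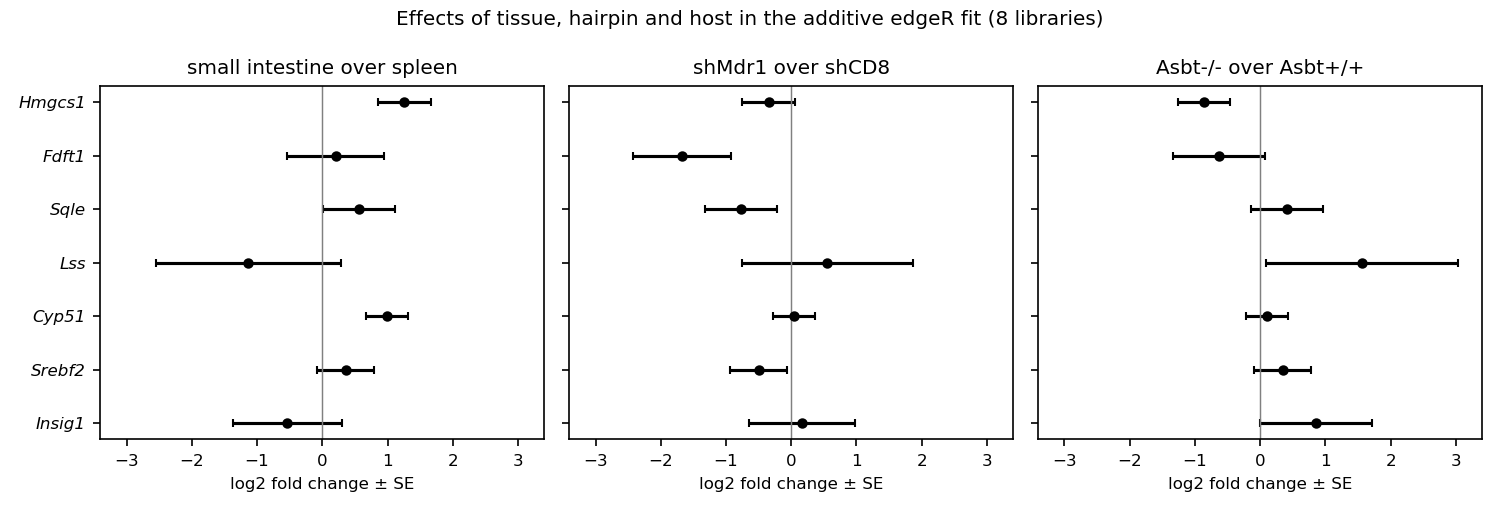
Log2 fold change of the 7 tested genes for small intestine over spleen, shMdr1 over shCD8 and Asbt-/- over Asbt+/+, with bars of 1 SE. The largest positive tissue value is that of Hmgcs1, at 1.26, and the largest negative hairpin value that of Fdft1, at -1.67; no gene passed the adjusted threshold in any of the 3 comparisons.

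The second comparison asks what differs when T cells carry the hairpin against the transporter gene. None of the 7 tested members passed, and neither did any of the 10000 genes (0%), with 299 genes at an unadjusted edgeR p under 0.05. By DESeq2 4 of all genes passed and by limma-voom 0. Fdft1 was the 1 tested member whose libraries were separated by hairpin, in a direction that 1.34% of all genes tested shared.

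Fdft1 had 3.57, 7.70, 6.77 and 11.2 CPM in the shMdr1 libraries (small intestine Asbt-/-, small intestine Asbt+/+, spleen Asbt-/-, spleen Asbt+/+), against 25.5, 39.0, 14.8 and 15.0 CPM in the shCD8 libraries in the same order. Every shMdr1 value was below every shCD8 value. The means were 7.32 ± 3.16 CPM with shMdr1 and 23.6 ± 11.4 CPM with shCD8 (SD, n = 4 each). The log2 fold change was -1.67 ± 0.75 (SE), with an edgeR p of 0.0471 and an adjusted p of 0.999. The ratio of shMdr1 to shCD8 was 0.140 (95% counting interval 0.0611 to 0.282) in small intestine Asbt-/- and 0.197 (0.0986 to 0.360) in small intestine Asbt+/+. In spleen it was 0.456 (0.207 to 0.932) in Asbt-/- and 0.747 (0.435 to 1.27) in Asbt+/+ hosts. The small intestine ratios were thus the lower ones. Within small intestine the log2 fold change was -2.57 ± 1.03 (adjusted p = 0.785), within spleen -0.77 ± 0.99 (adjusted p = 1), and their difference was -1.81 ± 1.40 (SE; edgeR adjusted p = 1). Without the small intestine Asbt+/+ pair, where Abcb1a went against the label, the log2 fold change over the remaining libraries was -1.42 (adjusted p = 0.833).

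Exons of Fdft1 overlap those of Ctsb, the gene of the lysosomal protease cathepsin B, over 774 bases on the opposite strand in GENCODE vM21, and no source used here says whether reads were counted by strand. Ctsb had 212, 184.9, 76.9 and 120.3 CPM in the shMdr1 libraries, against 182, 174, 157 and 183 CPM in the shCD8 libraries, in the order used for Fdft1. With shMdr1 it was higher in both small intestine pairs and lower in both spleen pairs, and its log2 fold change was -0.31 ± 0.28 (SE). The part of the overlap in the Fdft1 values was not tested. Hmgcs1, Idi1, Lss and Cyp51 also overlap a gene on the opposite strand, over 166 to 557 bases, so their counts carry the same uncertainty.

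Sqle, the enzyme after Fdft1, had 19.4, 14.1, 15.4 and 10.8 CPM with shMdr1, against 37.9, 28.0, 20.6 and 17.6 CPM with shCD8. It was lower with shMdr1 in 4 of 4 matched pairs, as were 7.36% of all genes tested, and the 2 groups overlapped, since the highest shMdr1 value exceeded the lowest shCD8 value. Its log2 fold change was -0.77 ± 0.56 (SE; edgeR adjusted p = 0.999), and -0.70 without the small intestine Asbt+/+ pair. Srebf2 was lower with shMdr1 in 3 of 4 pairs, at a mean of 28.0 ± 3.96 CPM with shMdr1 and 41.6 ± 17.7 CPM with shCD8 (SD, n = 4 each). Its log2 fold change was -0.50 ± 0.44, and -0.49 without that pair. Idi1 had 1 count in all 4 shMdr1 libraries together against 14 counts in the 4 shCD8 libraries, a ratio of 0.0833 with a 95% interval of 0.00197 to 0.547 that covers counting error only. In the shCD8 group those counts were 0, 3, 5 and 6, so 1 library of that group held none. Without the small intestine Asbt+/+ pair, also a choice made after seeing the data, it was 1 count against 11, a ratio of 0.0960 (0.00223 to 0.661).

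For Hmgcs1 the hairpin value depended on 1 pair. The log2 fold change was -0.34 ± 0.40, and in small intestine Asbt+/+ the library labelled shMdr1 held 0.339 times the level of the library labelled shCD8 (95% counting interval 0.259 to 0.439). In the other 3 pairs the ratio was 0.843, 1.09 and 1.18, on both sides of 1, and without the small intestine Asbt+/+ pair the log2 fold change was 0.032. Insig1 went the other way in that same pair, at 14.1 times (4.32 to 72.8), and its log2 fold change was 0.17 ± 0.81 over all 8 libraries and -0.26 without the pair. Lss had a log2 fold change of 0.55 ± 1.31 over all 8 libraries and 0.91 without the pair. For Cyp51, whose value over all 8 stands above, it was 0.011 without the pair.

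**Figure D3:**
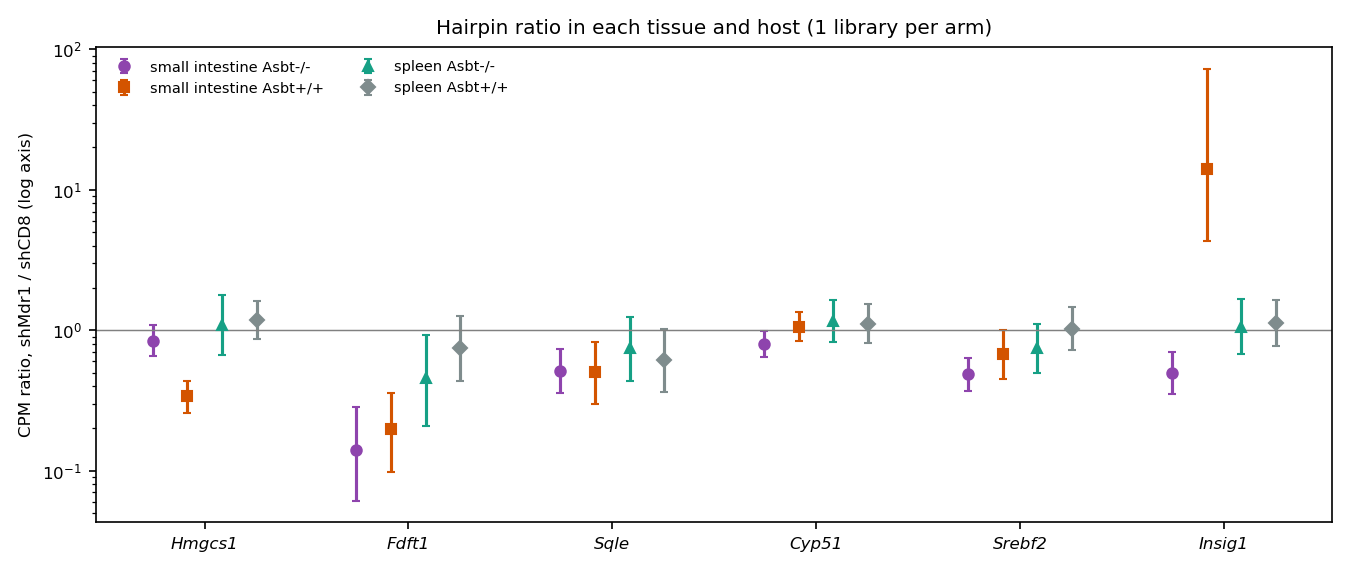
Ratio of the shMdr1 to the shCD8 library of the same tissue and host for the 6 genes named on the axis, on a log axis, with bars for the 95% counting interval. The 4 Fdft1 ratios and the 4 Sqle ratios lie below 1, and the Insig1 ratio of the small intestine Asbt+/+ pair lies at 14.1.

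Within small intestine, 6 of the 7 tested members had a log2 fold change below 0 for shMdr1 over shCD8, with a median of -0.80, against 42.4% of all genes tested, with a median of 0.22. This rests on 2 pairs, 1 of them the Asbt+/+ pair in which Abcb1a goes against the label and the shCD8 library stands apart. In the Asbt-/- pair alone, a choice made after seeing the data, 6 of the 7 were lower with shMdr1, against 53.6% of all genes tested. These were not the same 6 genes. Over both pairs the exception was Insig1, at 1.12 ± 1.46 (SE). In the Asbt-/- pair it was Lss, whose shMdr1 library held 2.52 times the shCD8 level. Over both pairs Cyp51 and Lss lay below 0 by less than their SE, at -0.12 ± 0.47 and -0.14 ± 1.57. Within spleen 3 of 7 had a log2 fold change below 0, against 49.9% of all genes tested, with medians of 0.13 and 0.00. No member's difference between the tissues passed the test (edgeR adjusted p = 1 for each of the 7). Nor did any member's hairpin effect differ between the hosts by the test, the most distant being Insig1 at -1.74 ± 1.69 (SE; edgeR adjusted p = 1). The erythroid markers summed to 43.2 to 41544 CPM with shMdr1 against 38.3 to 5109 CPM with shCD8, and the neutrophil markers to 10.7 to 7447 CPM against 37.5 to 6722 CPM. Mitochondrial genes took 8.62%, 18.3%, 26.8% and 6.63% of the counts with shMdr1, against 7.27%, 7.06%, 17.6% and 7.33% with shCD8, in the order used for Fdft1, so the share was higher with shMdr1 in 3 of 4 pairs. The part of these cells and of RNA quality in the hairpin values was not tested.

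The third comparison asks whether the host's bile acid transporter matters for these genes. None of the 7 tested members passed, and again none of the 10000 genes did (0%), with 271 at an unadjusted edgeR p under 0.05. DESeq2 called 4 of all genes and limma-voom called 0. Hmgcs1 had the lowest p of the members. It held 46.8, 55.5, 20.3 and 18.7 CPM in the Asbt-/- libraries (shMdr1 small intestine, shCD8 small intestine, shMdr1 spleen, shCD8 spleen), against 45.6, 134, 41.2 and 34.8 CPM in the Asbt+/+ libraries. It was lower in Asbt-/- hosts in 3 of 4 pairs, with ratios of 0.412 in shCD8 small intestine, 0.493 in shMdr1 spleen and 0.536 in shCD8 spleen, and nearly level in shMdr1 small intestine, at 1.03. Mitochondrial genes took 26.8% and 17.6% of the counts in the spleen Asbt-/- libraries (shMdr1, then shCD8), against 6.63% and 7.33% in the spleen Asbt+/+ libraries, and 8.62% and 7.27% in small intestine Asbt-/-, against 18.3% and 7.06% in small intestine Asbt+/+. Their share was thus higher in Asbt-/- hosts in both of the spleen pairs where Hmgcs1 was lower, and the part of RNA quality in that was not tested. For Hmgcs1 the log2 fold change was -0.86 ± 0.40 (SE), with an edgeR p of 0.0552 and an adjusted p of 0.996. The ratio of 0.412 came from the pair that holds the shCD8 small intestine Asbt+/+ library, which stood apart. With 1 library left out the log2 fold change ran from -1.14 to -0.54, so its size depended on single libraries. It was -0.86 with hemoglobin, mitochondrial and Rn18s-rs5 counts left out, which is no test of RNA quality.

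Fdft1 was lower in Asbt-/- hosts in 4 of 4 pairs, as were 5.19% of all genes tested, with a log2 fold change of -0.63 ± 0.71. Its shCD8 spleen pair was nearly level, at 0.986 (95% counting interval 0.588 to 1.65). Only its shCD8 small intestine ratio, 0.654 (0.470 to 0.905), lay clear of no change. Sqle was higher in Asbt-/- hosts in 4 of 4 pairs, as were 8.5% of all genes tested, with a log2 fold change of 0.41 ± 0.55. The counting interval of every Sqle pair covered no change. These neighbouring enzymes had opposite signs, and both log2 fold changes were smaller than their SE. Srebf2 had 0.34 ± 0.44. Insig1 and Lss had 0.85 ± 0.86 and 1.57 ± 1.47. Without the small intestine Asbt+/+ libraries only spleen holds both hosts, so the host value is then one of spleen alone. It was -0.18 for Insig1 and -0.10 for Lss. In the shCD8 small intestine pair Insig1 had 104 counts in the Asbt-/- library and 3 counts in the Asbt+/+ library, a ratio of 35.1 (95% counting interval 11.7 to 173), while the ratio was 1.23 in the shMdr1 small intestine pair and 0.865 and 0.915 in the spleen pairs. The test of whether the host effect differed between the tissues gave 2.65 ± 1.87 for Insig1 (edgeR adjusted p = 0.937) and 3.84 ± 2.66 for Lss (edgeR adjusted p = 0.937). The epithelium markers summed to 22.5 to 42.5 CPM in Asbt-/- libraries, with Krt8, Krt20, Vil1 and Fabp2 at 0, against 34.0 to 232 CPM in Asbt+/+ libraries, with Fabp1 at 0. The neutrophil markers summed to 10.7 to 3001 CPM in Asbt-/- libraries against 111 to 7447 CPM in Asbt+/+ libraries, and all 6 had a log2 fold change below 0, with a median of -1.87. The part of these cells in the host values was not tested.

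The other genes of the route give the setting. Of 14 other enzymes of cholesterol synthesis, 12 were tested and none passed in any of the 3 comparisons. For small intestine over spleen 4 of the 12 were above 0, with a median log2 fold change of -0.00, against 0.36 for the 7 members and -0.17 over all genes tested. For shMdr1 over shCD8 the medians were -0.18 for the 12 enzymes, 9 of them below 0, -0.34 for the 7 members and 0.09 over all genes tested. For Asbt-/- over Asbt+/+ they were 0.29, 0.34 and 0.11. The 9 genes of SREBP processing and sterol handling had medians of -0.04, 0.32 and 0.20 in the same order of comparisons, and none passed. Of 7 genes of oxysterol receptors and their targets 4 were tested, with medians of -0.57, 0.16 and 0.20. Of 7 genes of fatty acid synthesis 6 were tested, with medians of -0.68, 0.74 and 0.34. None passed in either list.

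Of the 12 enzymes, Msmo1 and Nsdhl had the lowest p in the tissue comparison, and they were chosen here after their values were seen. Msmo1, the sterol methyl oxidase, held 44.0, 60.7, 15.4 and 114 CPM in the small intestine libraries (shMdr1 Asbt-/-, shCD8 Asbt-/-, shMdr1 Asbt+/+, shCD8 Asbt+/+), against 6.77, 17.7, 27.9 and 16.8 CPM in spleen. Its log2 fold change was 1.66 ± 0.60 (SE; edgeR adjusted p = 0.435), and the tissues overlapped through the shMdr1 Asbt+/+ pair. Nsdhl, a sterol dehydrogenase of the same demethylation, held 32.9, 70.6, 38.5 and 17.7 CPM in small intestine, against 12.9, 14.4, 6.66 and 23.2 CPM in spleen, with a log2 fold change of 1.499 ± 0.60 (edgeR adjusted p = 0.517).

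**Figure D4:**
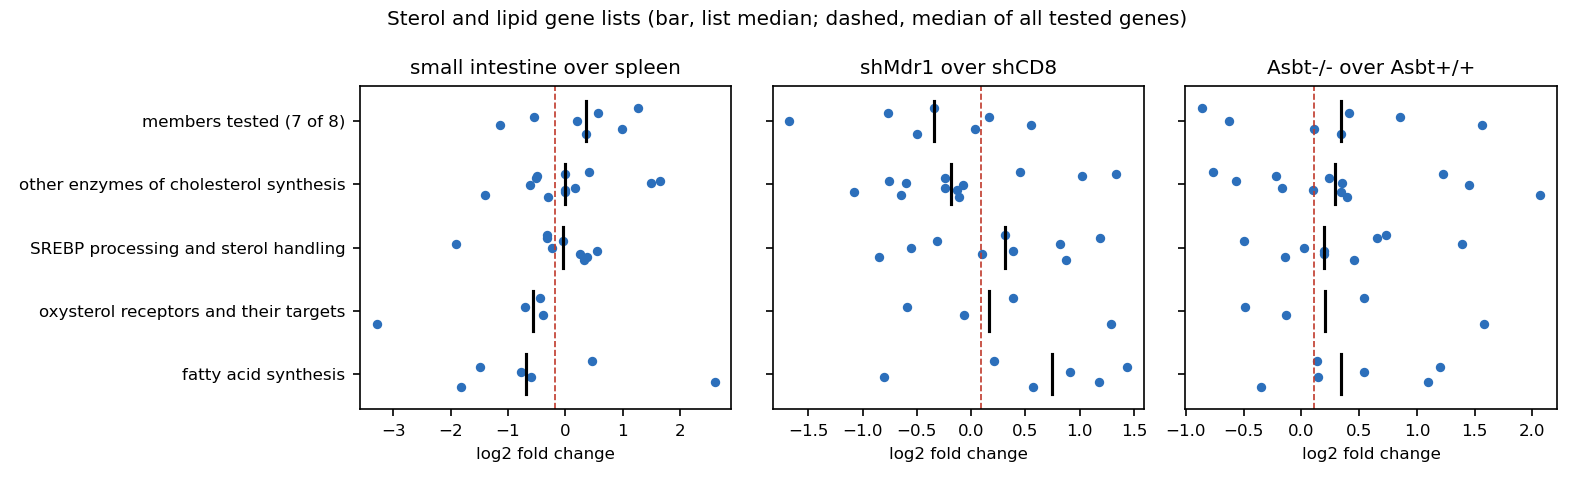
Log2 fold changes of the tested genes of each list in the 3 comparisons, with 1 point per gene a bar at the list's median and a dashed line at the median of all genes tested. The medians of the 7 members are 0.36 for small intestine over spleen, -0.34 for shMdr1 over shCD8 and 0.34 for Asbt-/- over Asbt+/+, and the points of every list spread across 0 in at least 1 comparison.

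Across the 8 libraries the members did not all vary together. Of the 21 pairs among the 7 tested members, 13 had a positive correlation of log2 CPM, with a median r of 0.15. The highest was 0.85, between Sqle and Srebf2, and the lowest -0.70, between Hmgcs1 and Insig1. Without the shCD8 small intestine Asbt+/+ library, 17 of the 21 were positive over the remaining 7, with a median of 0.40 and a lowest value of -0.34. These points share libraries and depth, and no test was made. By the same measure the genes most like the members' mean profile, among 5070 genes with a mean of at least 20 CPM, were Ufm1 (r = 0.973), H2-K1 (0.970), Phf6 (0.961), P4hb (0.947) and Uqcrq (0.945), over 8 libraries. They were picked as the largest of 5070 values over few libraries, so high values are in part a product of that choice.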

How the data were processed

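RNA from sorted T cells was amplified with the SMART-Seq v4 ultra low input kit and made into libraries with NEBNext Ultra II, per the labels' protocols, with no molecular identifiers. The authors deposited 1 table of raw read counts per gene for all 8 libraries. TopHat, HTSeq, DESeq2 and build mm9 are named in the submitters' processing notes; no source used here gives versions, annotation or strand setting. The amplification from few cells can leave low genes at 0, and intervals cover counting error only.

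From the counts, edgeR 4.0.16 (R 4.3.3) kept 10000 of 37411 genes (filterByExpr, 99.5% of counts), scaled them by TMM and fitted tissue, hairpin and host as additive terms, with 4 residual degrees of freedom. The quasi-likelihood test was adjusted by Benjamini-Hochberg at 0.05, and SE is the log2 fold change divided by the root of its F value. Differences between tissues came from a fit with separate effects per tissue (2 residual degrees of freedom). CPM used TMM-scaled library sizes. A count of 0 allows up to 3 counts. Alternatives used DESeq2 1.42.0, limma 3.58.1 (voom), RLE scaling, no filter, no covariates and a block per matched pair. Others used counts without hemoglobin genes, mitochondrial genes and Rn18s-rs5, and libraries left out. No replicate numbers pair the libraries; a matched pair is alike in the other 2 factors. Exon lengths and overlaps came from GENCODE vM21, not the authors' build, and start regions from RefSeq. The tests were tried on simulated counts with large changes and no outlying library. That trial does not cover members with few counts or a library that stands apart. By plan the named genes were all 8 members, Abcb1a as the check of the hairpin, listed genes that passed, and the 5 closest profiles. Those profiles had a mean of at least 20 CPM (prior count 2). Msmo1 and Nsdhl did not pass and were added after their values were seen. Ctsb was added for its overlap with Fdft1. Members and lists were chosen with earlier results of these data known.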

Additional observations from a re-analysis of the deposited data

Results flagged for a closer look

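The 8 genes were looked at in 48 sets of 4 libraries (8 genes by 6 levels of the 3 factors) for 1 library far from the other 3. Of these sets, 5 held one. The rule's chance rate of about 1 in 20 cannot be set against the 5. The sets overlap, since each library enters a set for each of the 3 factors. For Idi1, with counts at or near 0, a single read can also raise a flag. Hmgcs1 was at 134 CPM in the shCD8 small intestine Asbt+/+ library, the highest of both the small intestine and the Asbt+/+ sets. Insig1 was at 41.5 CPM in the shCD8 small intestine Asbt-/- library, above the other Asbt-/- libraries. Idi1 was at 0.396 CPM, 1 count, in the shMdr1 small intestine Asbt-/- library while the other shMdr1 libraries had none. Idi1 was also at 2.39 CPM in the shCD8 spleen Asbt-/- library, the highest of the Asbt-/- set.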

How the results depend on the processing

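In the 3 comparisons of tissue, hairpin and host, none of the 7 tested members passed the threshold under any alternative, and of 112 member values each, 107, 100 and 109 kept their direction. The lowest adjusted p was 0.131 for tissue (Hmgcs1, DESeq2), 0.833 for hairpin and 0.891 for host. With a replicate block for each matched pair, 0 members passed in each comparison, with 54, 0 and 0 of all genes against 62, 0 and 0 without the block. Over all genes, the tissue count of 62 became 165 with no filter, 257 with DESeq2, 39 without both small intestine Asbt+/+ libraries and 11 (without shMdr1 small intestine Asbt+/+) to 137 (without shCD8 small intestine Asbt+/+) with 1 library left out; each of the other 6 libraries left 21 to 36. The hairpin count of 0 became 9 with no filter and 4 with DESeq2, and the host count of 0 became 14, 4 and, without shCD8 small intestine Asbt+/+, 4 (0 to 4 over single libraries). Without both small intestine Asbt+/+ libraries, directions turned for tissue in Insig1 (0.41) and Lss (0.47), for hairpin in Hmgcs1 (0.032) and Insig1 (-0.26), and for host in Insig1 (-0.18), Lss (-0.10) and Srebf2 (-0.015). In that fit the tissue value rests on Asbt-/- hosts alone and the host value on spleen alone. The hairpin value turned for Cyp51 with limma-voom (-0.025) and with no covariates (-0.0083), and for Insig1 with no covariates (-0.0090). With 1 library left out, log2 fold changes crossed 0 for tissue in Fdft1 (-0.20 to 0.54) and Insig1 (-1.52 to 0.078), and for hairpin in Lss (-0.49 to 1.15), Cyp51 (-0.045 to 0.15) and Insig1 (-0.38 to 1.19).

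For the differences of an effect between tissues or hosts, 0 members and 0 genes passed. DESeq2 gave 1 gene for the tissue-dependent hairpin effect and 21 for the tissue-dependent host effect. For the host-dependent hairpin effect, no filter and limma-voom gave 3 each. Insig1 turned to -0.39 with limma-voom for the tissue-dependent hairpin effect, and Sqle to -0.0053 with DESeq2 size factors and -0.0056 with the DESeq2 test for the tissue-dependent host effect. Leaving 1 small intestine library out of the fit with separate tissue effects leaves the spread to be set by the spleen alone, so such counts are no sign of strength. The tissue-dependent hairpin effect then gave 0 to 2 members and 1 to 2902 genes, with Hmgcs1 at -1.74 and Insig1 at 3.63 without either small intestine Asbt-/- library. The tissue-dependent host effect gave 0 to 1 members and 0 to 3256 genes, with Insig1 at 5.26 without either shMdr1 small intestine library. The host-dependent hairpin effect gave 0 to 1 members and 0 to 977 genes, with Insig1 at -4.71 without shCD8 spleen Asbt+/+. Values that crossed 0 were Insig1 (-1.14 to 3.63) and Lss (-5.08 to 0.64) for the first, Hmgcs1 (-0.30 to 1.00) and Sqle (-0.048 to 0.24) for the second, and Fdft1 (-1.44 to 0.10), Cyp51 (-0.43 to 0.085), Hmgcs1 (-0.11 to 1.32) and Sqle (-0.021 to 0.36) for the third. The cause was not tested.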
